A study of Mus musculus with 10 samples.

Results

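The array carried 871 probes designed to curated RefSeq non-coding transcripts, those with an accession of the NR series, among 97836 non-control probes. They were chosen by identifier alone, 440 with an identifier that opens with the accession and 431 with the accession inside a longer RefSeq identifier. The rule for them uses no measured value. Livers of 10 male C57BL/6J mice, 42 days old, were each hybridised to 1 one-colour array. The 5 control mice were wild type and ate regular food. The 5 hyperlipidemic mice were ApoE-/-, lacking apolipoprotein E, through which the liver clears remnant lipoproteins, and ate a high-fat diet with 2.5% cholesterol and 15% fat, so genotype and diet cannot be told apart. The labels do not say whether the mice of a group were littermates, so a p-value here reflects only how much these 10 samples varied. The labels' extraction protocol is one for blood RNA and their molecule entry is DNA, against liver as source and description, and the samples are treated here as liver RNA.

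Transcripts of the NR series are non-coding RNAs that curators have placed on evidence of transcription: long non-coding RNAs, transcribed pseudogenes, and non-coding splice forms of coding genes. Long non-coding RNAs act in the nucleus on chromatin and splicing or in the cytoplasm on RNA stability, and some serve mainly as hosts whose introns give small nucleolar RNAs or microRNAs. In liver, such transcripts have been tied to lipid synthesis, bile acid handling and hepatocyte identity. A RefSeq gene table matched 840 of the probes to 807 genes and left 31 without a gene. Of the probes, 649 lay in genes of class long non-coding RNA, 146 in transcribed pseudogenes, 37 in protein-coding genes and 8 in genes of other classes. Bulk liver RNA does not tell fewer cells of a type from less RNA per cell.

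Promoter windows of 7 members that the results return to are shown, each 300 bases from RefSeq, build GRCm38.p6, written 5′ to 3′ on the strand of the gene, with 250 bases before and 50 after the annotated start. Gm38426 and B230354K17Rik were 2 of the members whose groups did not overlap, Celrr has the cholesterol regulator Insig2 as its nearest coding gene, Hnf4aos runs opposite to a liver transcription factor, and 3 are hosts of small nucleolar RNAs. Capitals mark the letters TATAAA, searched on both strands as TATAAA and TTTATA; these 2 words can overlap each other.
Gm38426, chr8:84913085-84913384, plus strand: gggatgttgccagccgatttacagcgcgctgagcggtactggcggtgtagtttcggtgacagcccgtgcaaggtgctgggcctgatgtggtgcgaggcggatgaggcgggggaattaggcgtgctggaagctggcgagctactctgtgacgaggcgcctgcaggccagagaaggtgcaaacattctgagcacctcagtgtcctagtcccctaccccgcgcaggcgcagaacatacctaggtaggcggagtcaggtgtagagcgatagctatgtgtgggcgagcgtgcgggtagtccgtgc
B230354K17Rik, chr17:45433581-45433880, plus strand: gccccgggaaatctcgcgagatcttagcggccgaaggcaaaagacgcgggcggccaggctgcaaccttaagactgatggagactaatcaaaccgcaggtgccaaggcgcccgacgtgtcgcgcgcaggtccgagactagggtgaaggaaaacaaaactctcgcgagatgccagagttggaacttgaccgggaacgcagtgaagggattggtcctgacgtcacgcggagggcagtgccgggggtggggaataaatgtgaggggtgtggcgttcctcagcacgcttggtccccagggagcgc
Celrr, chr1:121087155-121087454, plus strand: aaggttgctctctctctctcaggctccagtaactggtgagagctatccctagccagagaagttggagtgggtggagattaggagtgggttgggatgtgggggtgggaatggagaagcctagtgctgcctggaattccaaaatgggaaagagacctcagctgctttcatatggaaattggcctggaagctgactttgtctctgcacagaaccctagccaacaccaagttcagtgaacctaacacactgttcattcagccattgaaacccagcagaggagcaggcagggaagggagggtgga
Hnf4aos, chr2:163541672-163541971, minus strand: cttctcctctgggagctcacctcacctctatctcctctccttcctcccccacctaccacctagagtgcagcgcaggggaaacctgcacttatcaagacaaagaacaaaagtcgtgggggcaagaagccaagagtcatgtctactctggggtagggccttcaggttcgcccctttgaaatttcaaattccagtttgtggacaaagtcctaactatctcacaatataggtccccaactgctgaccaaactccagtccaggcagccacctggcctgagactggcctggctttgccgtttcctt
Snhg5, chr9:88522848-88523147, minus strand: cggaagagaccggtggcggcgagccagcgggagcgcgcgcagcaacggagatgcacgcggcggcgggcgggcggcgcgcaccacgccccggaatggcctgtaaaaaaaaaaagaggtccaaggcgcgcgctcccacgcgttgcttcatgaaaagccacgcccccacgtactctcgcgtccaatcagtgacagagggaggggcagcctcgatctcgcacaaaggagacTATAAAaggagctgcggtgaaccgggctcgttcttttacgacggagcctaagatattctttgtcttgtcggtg
Snhg7, chr2:26640195-26640494, minus strand: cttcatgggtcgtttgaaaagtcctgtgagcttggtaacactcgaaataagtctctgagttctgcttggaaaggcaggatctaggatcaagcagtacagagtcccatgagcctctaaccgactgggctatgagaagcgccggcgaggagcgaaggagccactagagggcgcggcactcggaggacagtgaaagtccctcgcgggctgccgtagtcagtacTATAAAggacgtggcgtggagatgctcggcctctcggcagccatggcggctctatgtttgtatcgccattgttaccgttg
Snhg8, chr3:123508287-123508586, minus strand: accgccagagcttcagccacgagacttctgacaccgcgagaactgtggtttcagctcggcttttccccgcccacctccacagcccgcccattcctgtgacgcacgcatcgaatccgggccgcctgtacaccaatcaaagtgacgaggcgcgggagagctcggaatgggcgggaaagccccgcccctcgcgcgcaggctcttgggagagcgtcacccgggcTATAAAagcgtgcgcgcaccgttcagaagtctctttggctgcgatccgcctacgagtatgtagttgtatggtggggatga

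The windows of Snhg7 and Snhg8 each held TATAAA on the gene's strand, beginning at position -30 relative to the start, and that of Snhg5 at -23. The windows of Snhg16, Gm38426, B230354K17Rik, Celrr and Hnf4aos held neither word. Snhg9 held TATAAA after its start, at 34 bases, and TTTATA before it. In all, 13.6% of the 32851 windows of the table held either word, and 528 of the 807 member genes had a window. The words are a description of these letters, and no result below rests on them.

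Most probes of curated non-coding transcripts were not well above background on any array of these livers. A probe was called detected on an array when it was well above background by the scanner software's own flag. A probe with 2 spots had to carry the flag on both. Of the 871 probes, 533 were detected on 0 of 10 arrays, 76 on 1 array and 157 on all 10. Few probes fell between: 16 were detected on 2 arrays, 19 on 3, 13 on 4, 11 on 5, 9 on 6, 12 on 7, 12 on 8 and 13 on 9. Of the 76 probes detected on a single array, 57 were detected on control replicate 4. That array also had the most detection over all probes, with 49.2% of its non-control spots well above background against 33.6% to 39.9% on the other 9. No spot was saturated on any array. By the software's other flag, for a positive and significant signal, the mean share of the probes per array was 47.8%, from 41.3% to 62.8%. It was 25.2% by the flag for well above background.

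The share of these transcripts detected did not differ between groups beyond the spread between arrays. The share of the probes well above background was 26.5%, 21.8%, 23.5%, 35.7% and 24.7% on control replicates 1 to 5 and 25.5%, 23.8%, 21.6%, 23.4% and 25.5% on hyperlipidemic replicates 1 to 5. Control replicate 4 was the highest, and the groups overlapped. The means were 26.4% ± 5.46 and 23.96% ± 1.64 (SD, n = 5 per group), a difference of -2.49 percentage points (exact permutation test, two-sided, p = 0.444). Without control replicate 4 the difference was -0.17 points. Within the 1 slide that held both groups it was -1.08 points, with 1 control array against 3. Of the 871 probes, 75 (8.61%) were detected in control arrays only and 10 (1.15%) in hyperlipidemic arrays only, where the shares of all probes were 7.86% and 1.31%. Without control replicate 4 these counts were 18 (2.07%) and 22 (2.53%), where the shares of all probes were 1.87% and 3.02%. Thus 57 of the 75 rested on that 1 array.

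Probes of curated transcripts were detected more often than those of predicted ones on the same arrays. The mean share over 10 arrays was 25.2% for the curated probes and 16.5% for the 12146 probes of predicted RefSeq transcripts (the XR series), a difference of 8.67 points with the curated share higher on 10 of 10 arrays (exact sign-flip permutation test over arrays, two-sided, adjusted over 2 comparisons, p = 0.00391; 0.00195 is the smallest unadjusted p that 10 arrays allow). Against the 28773 probes of the NONCODE collection, whose mean share was 24.01%, the difference was 1.19 points, higher on 8 of 10 arrays (the same exact sign-flip permutation test, p = 0.0137). Every array carried the same probes, so these p-values measure how steadily fixed sets of probes ranked over the arrays. They do not measure how detection varies among transcripts of a class. The 39027 catalogue probes of the array, which include messenger RNAs, were at 53.7%. Per array, the predicted probes ranged from 12.7% to 28.1%, the NONCODE probes from 19.1% to 36.3% and the catalogue probes from 49.9% to 62.2%, and control replicate 4 was the highest array for each. The 431 members with the longer identifier averaged 25.8% and the 440 others 24.6%, a difference of 1.22 points, higher on 10 of 10 arrays. This was about as large as the difference from NONCODE. By the software's flag for a positive and significant signal, the difference between the identifier forms was -5.29 points. The part of probe design and of the number of spots per probe in these shares was not tested.

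Transcribed pseudogenes were detected more widely than long non-coding RNAs as counts of probes. On all 10 arrays, 38 of 146 pseudogene probes (26.0%), 98 of 649 long non-coding RNA probes (15.1%) and 13 of 37 probes in protein-coding genes (35.1%) were well above background. A pseudogene transcript can resemble the transcript of its parent gene, and probe sequences were not used here, so the source of a pseudogene's signal was not tested. Probes with RIKEN clone names from testis libraries, 23 of 155 on all 10 arrays (14.8%), were about as often detected as other RIKEN names, 33 of 223 (14.8%). Transcripts that overlap a protein-coding gene, 60 of 331 (18.1%), and those that overlap none, 91 of 509 (17.9%), were also close.

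Levels here are log2 of the background-subtracted signal minus the array's 75th percentile, so that 0 is the signal that 1 in 4 spots exceed. Probes hybridise with different strength, and no level is set against another probe's. The 75th percentile was 7.05 on control replicate 4 and 5.97 to 6.64 on the others. Over the tested members, the median shift of an array's levels was -0.26 on control replicate 4 and -0.06 to 0.12 on the others. The part of this shift in low readings of single members on that array was not tested. The 194 probes (22.3%) detected on 4 or 5 arrays of either group were tested between groups. The remaining 677 were detected on too few arrays to be tested, 533 of them on none. Of the 194, 157 were detected on all 10 arrays and 37 on fewer, and a probe that passed only through its higher group was bound to differ in that respect.

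Where a probe had 2 spots, the spots of 1 array differed far less than the arrays of 1 group. Detection flags of the 2 spots agreed in 94.7% of 4302 pairs. Over 101 tested probes with 2 spots, the median SD between spots was 0.12 and the median SD between arrays of a group was 0.39, and the SD between arrays was the larger for 97 of them. Over all 194 tested probes the median SD within groups, pooled over both, was 0.40, against 0.38 for all 30263 tested probes of the array. The middle 80% of them lay between 0.24 and 0.67.

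The steadiest of those detected on all arrays were AI463170 (pooled SD 0.14), Trp53cor1 (0.15), 4930556M19Rik (0.15), a probe of a non-coding form of the oestrogen receptor gene Esr2 (0.16) and 9530091C08Rik (0.17), which overlaps the nuclear receptor gene Rora. AI463170 read 3.17, 3.01, 3.20, 3.37 and 3.12 on control replicates 1 to 5 and 3.24, 3.08, 3.24, 3.46 and 3.16 on hyperlipidemic replicates 1 to 5. Its 10 arrays thus spanned less than 1 log2 unit, and the groups overlapped. The most variable were 1500011B03Rik (1.0), Selenok-ps1 (0.99), Gm2518 (0.94), Olfr856-ps1 (0.87) and 1700028D13Rik (0.82). The long non-coding RNA 1500011B03Rik read 3.53, 1.89, 2.98, 4.66 and 1.84 in controls and 3.54, 2.61, 1.85, 1.79 and 1.77 in hyperlipidemic livers. Its highest array was control replicate 4 and 5 arrays, of both groups, lay between 1.77 and 1.89. Gm2518 also peaked on control replicate 4, at 2.15, with the other controls at -0.58 to 1.07.

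None of the 194 tested curated transcripts passed the adjusted threshold in either direction. With limma p-values adjusted over all 30263 probes tested and a threshold of 0.05, 0 members were higher and 0 lower, against 13 higher (0.0430%) and 8 lower (0.0264%), 0.0694% in all, on the whole array. The lowest adjusted p of a member was 0.500. At an unadjusted p under 0.05, 5 members were higher (2.58%, where 2.98% of all probes were) and 7 lower (3.61%, where 2.84% were); 5.82% of all probes passed in either direction. With at least a 2-fold difference as well, 1 member was higher (0.347% of all probes) and 2 lower (0.403%). The median difference, hyperlipidemic minus control, was -0.02 for the members and 0.03 for all probes, with 91 of 194 above 0. Differences ran from -1.35 to 1.86; 171 were smaller than 0.5 in size and 3 larger than 1. The 95% interval from the limma fit lay within 1 log2 unit of 0 for 147 of 194, so a change of more than 2-fold was outside the interval for these and inside it for the rest. Median half-width was 0.53.

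Groups did not overlap for 4 members, 1 higher and 3 lower, where 0.975% of all probes tested had groups that did not overlap (0.615% higher and 0.360% lower). The member that was higher was 9030619P08Rik (NR_108041.1), a transcribed pseudogene whose nearest coding gene, 17.6 kb away in GRCm38.p6, is Ly6l, of the Ly6 surface protein family. Its level was -1.06, -1.30, -0.74, -1.82 and -0.51 on control replicates 1 to 5 and -0.46, -0.13, 0.02, 0.19 and -0.27 on hyperlipidemic replicates 1 to 5. The closest arrays were control replicate 5 and hyperlipidemic replicate 1, which shared a slide. The means were -1.09 ± 0.51 and -0.13 ± 0.25 (SD, n = 5 per group), a difference of 0.96 (SE 0.25, 95% interval 0.43 to 1.49, limma adjusted p = 0.500). With slide as a block the difference was 0.32, which rests on 1 control array. Arrays also fell into 3 sets by the signal of the added spike-in RNA, of which 1 held both groups (control replicates 4 and 5 with hyperlipidemic replicates 1 and 2), and with that set as a block the difference was 0.88.

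Gm38426 (NR_103491.1) is a long non-coding RNA that overlaps Mast1, a microtubule-associated kinase gene. Its control arrays read 1.71, 2.29, 2.34, 1.64 and 1.77 and its hyperlipidemic arrays 0.93, 1.47, 0.44, -0.14 and 1.48. Hyperlipidemic replicates 3 and 4 were the lowest, and the lowest control stood a little above the highest hyperlipidemic array. Means were 1.95 ± 0.34 and 0.84 ± 0.69 (SD, n = 5 per group), a difference of -1.12 (SE 0.30, 95% interval -1.77 to -0.46, limma adjusted p = 0.568). It was -0.83 with slide as a block and -0.51 with the spike-in set as a block.

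Gm8363 (NR_073378.1), a transcribed pseudogene, read -0.30, -0.40, -0.56, 0.19 and -0.50 in controls and -0.70, -1.13, -1.13, -1.07 and -1.24 in hyperlipidemic livers. Control replicate 4 was the highest array and the hyperlipidemic arrays lay close together, from -1.24 to -0.70. The difference was -0.74 (SE 0.20, 95% interval -1.18 to -0.31, limma adjusted p = 0.568) and -0.49 with slide and -0.76 with the spike-in set as a block. B230354K17Rik (NR_130960.1), a long non-coding RNA 0.124 kb from the splicing factor gene Cdc5l, read 0.29, 0.60, 0.51, 0.40 and 0.53 in controls and 0.11, 0.27, -0.44, -0.95 and 0.10 in hyperlipidemic livers. Its controls were tightly grouped, and hyperlipidemic replicates 3 and 4 stood below the other 3. The difference was -0.65 (SE 0.24, 95% interval -1.16 to -0.14, limma adjusted p = 0.789), and -0.55 with slide and -0.27 with the spike-in set as a block.

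Rnf227 (NR_027827.1), which bears a RING finger gene's name and the class long non-coding RNA in the table used, was the 1 member detected on every array of a group and on no more than 1 of the other. Detection covered 5 of 5 control arrays and 1 of 5 hyperlipidemic ones. It read -0.71, -0.10, -0.81, -1.52 and -0.44 in controls and -3.11, -1.13, -2.54, -2.29 and -1.25 in hyperlipidemic livers. The groups overlapped through control replicate 4, the lowest control. The difference of -1.35 (SE 0.37, 95% interval -2.15 to -0.55, limma adjusted p = 0.577) is measured against arrays where 4 of 5 signals were not well above background. It was -1.82 with slide as a block and -1.14 with the spike-in set as a block.

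Serpina4-ps1 (NR_002861.2), a pseudogene in the cluster of serpin protease inhibitor genes that hepatocytes secrete, had the largest difference among the tested members and the largest spread. Its controls read -2.05, -0.90, -1.75, -4.70 and 0.52 and its hyperlipidemic arrays 1.20, 0.49, -0.21, -1.86 and 0.80. The probe was detected on 2 of 5 controls and 4 of 5 hyperlipidemic arrays. Control replicate 4 was the lowest by far, and the groups overlapped. Means were -1.78 ± 1.92 and 0.08 ± 1.20 (SD, n = 5 per group), a difference of 1.86 (SE 0.77, 95% interval 0.21 to 3.52, limma adjusted p = 0.827). The difference was 1.13 without control replicate 4, -0.025 with slide as a block and 2.94 with the spike-in set as a block.

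Of the members at an unadjusted p under 0.05, the other 6 had overlapping groups, and they are named because that count is small. The long non-coding RNAs Gm10640, at -0.85, 9130015A21Rik, at -0.74, and 2210414B05Rik, at -0.43, were lower. For 2210414B05Rik the hyperlipidemic level is mostly that of undetected arrays, since it was detected on 5 control arrays and 2 hyperlipidemic ones. 9130015A21Rik, whose nearest coding gene is the aryl hydrocarbon receptor gene Ahr, 137 kb away, read 0.62, 0.70, 0.27, 1.02 and 0.51 in controls and 0.51, -0.12, -0.32, -0.19 and -0.47 in hyperlipidemic livers. Only hyperlipidemic replicate 1, at 0.51, reached into the control range. Those that were higher were the pseudogene Gm6642, at 0.88, the long non-coding RNA 1700020N01Rik, at 0.81, and Rpph1, at 0.58. With slide as a block Gm6642 differed by 0.0079, Gm10640 by -0.16 and 2210414B05Rik by -0.046. For 1700020N01Rik, detected on 3 control and 5 hyperlipidemic arrays, the difference was 1.30 with that block and 0.36 with the spike-in set as a block. With the latter block Gm6642 differed by 0.24.

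Rpph1 is the RNA subunit of ribonuclease P, which trims the leading end of transfer RNA precursors. It was well above background on all 10 arrays and read 6.33, 6.55, 6.11, 5.84 and 6.65 in controls and 6.21, 6.71, 7.48, 7.24 and 6.73 in hyperlipidemic livers. Hyperlipidemic replicates 3 and 4 were the highest, and the groups overlapped. The interval was 0.03 to 1.13, the limma adjusted p 0.827, and the difference 0.15 with slide and 0.21 with the spike-in set as a block. Rpph1 was the only one of the 23 structural small RNAs listed that matched a curated probe.

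Host genes of small nucleolar RNAs carry those RNAs in their introns, while the spliced exons are often short-lived. Of 6 such genes matched, 5 were tested and 0 passed the adjusted threshold; Snhg18 was not detected on any array. Snhg16 differed by -0.55, Snhg7 by -0.47, Snhg8 by -0.35, Snhg5 by -0.27 and Snhg9 by 0.14. The median of the 5 was -0.35, beside 0.03 for all probes. Snhg5, Snhg8 and Snhg9 were well above background on all 10 arrays.

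Snhg8 read 3.53, 4.5, 3.90, 3.46 and 4.49 in controls and 3.59, 4.0, 3.60, 3.12 and 3.86 in hyperlipidemic livers. Snhg16 read -0.54, 0.20, -0.53, -0.44 and 0.06 and -0.29, -0.22, -1.25, -1.96 and -0.29. Snhg7 read -0.93, 0.21, -0.48, -0.10 and -0.13 and -0.24, 0.15, -1.09, -2.04 and -0.58. For these 3 genes and Snhg5, hyperlipidemic replicate 4 was the lowest of the 10 arrays, while for Snhg9 the same array was the highest. Without that array the differences were -0.26 for Snhg16, -0.15 for Snhg7, -0.22 for Snhg8 and -0.032 for Snhg5. All 5 intervals from the fit included 0. With the spike-in set as a block, Snhg16 differed by -0.062, Snhg8 by -0.18, Snhg5 by 0.033 and Snhg7 by 0.071. The same 4 differed, with slide as a block, by -0.64, -0.76, -0.54 and -0.26.

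Transcripts listed as induced by p53 or tied to DNA damage were detected throughout. All 5 of those matched were well above background on all 10 arrays and 0 passed the adjusted threshold. Trp53cor1, whose nearest coding gene, 11.9 kb away, is the cell-cycle inhibitor gene Cdkn1a, read 0.63, 0.31, 0.47, 0.71 and 0.39 in controls and 0.22, 0.34, 0.18, 0.39 and 0.49 in hyperlipidemic livers. Its difference was -0.18 (95% interval -0.55 to 0.20), an interval that excludes a 2-fold change. Dleu2, which hosts a microRNA cluster, differed by -0.47 (95% interval -0.995 to 0.050), Lncpint, an RNA of the p53 response, by 0.06, and Mir22hg by -0.13. Gm15441 differed by 0.25. The same probe was also counted in the lists for hepatocyte genes, lipid metabolism and neighbours of lipid genes, and its tie to p53 was not tested. Of the 6 microRNA host transcripts, Dleu2, Mir22hg and Mir9-3hg (-0.20) were tested, Mirt2 was well above background on 2 control and 3 hyperlipidemic arrays, and Carmn and Mir1a-1hg on none.

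Norad, a cytoplasmic RNA that binds Pumilio proteins and guards chromosome stability, read 4.10, 4.43, 4.40, 3.72 and 4.30 in controls and 3.76, 4.37, 3.91, 3.52 and 4.01 in hyperlipidemic livers. Its difference was -0.28 (95% interval -0.74 to 0.19), and the groups overlapped. Firre, which shapes the nuclear position of the X chromosome, was detected on 2 control arrays and 1 hyperlipidemic array and was not tested. Of the 2 X inactivation RNAs, Tsix, the antisense partner of Xist, was detected on no array and Ftx on 1 control array.

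Imprinted RNAs, which are made from 1 parental copy, were mostly below detection. Of 6 measured, Peg13, transcribed inside Trappc9, was tested and differed by 0.45 (95% interval -0.09 to 0.98). Nctc1 was well above background on 3 arrays of each group, Rian on 1 control and 3 hyperlipidemic arrays, Meg3 on 1 of each, Kcnq1ot1 on 2 control arrays and Airn on none.

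Transcripts related to hepatocyte genes were detected. Their list was chosen with earlier results of these data known, so it cannot check the liver label. All 8 matched were tested, and 7 (87.5%) were well above background on all 10 arrays, where 18.0% of all members were. Serpina4-ps1 was the exception. None passed the adjusted threshold, and 6 of the 8 differences were above 0, with a median of 0.10, beside 0.03 for all probes. Without control replicate 4, 1300002E11Rik (-0.14), Cyp2d13 (-0.084) and Gm15441 (-0.028) fell below 0. Adh6-ps1 (0.13), Hnf4aos (0.080) and Serpina4-ps1 (1.13) stayed above 0 without that array. Cyp2d13 (0.12) and Cyp2d37-ps (-0.33) belong to the cytochrome P450 family that oxidises drugs, and Adh6-ps1 (0.23) is an alcohol dehydrogenase pseudogene. Cyp2d13 read 2.41, 2.91, 2.73, 1.68 and 2.77 in controls and 2.48, 2.86, 2.76, 2.54 and 2.44 in hyperlipidemic livers. Control replicate 4 was the lowest array and the other 9 lay between 2.41 and 2.91.

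Hnf4aos runs opposite to Hnf4a, the nuclear receptor that maintains hepatocyte gene expression. It read 1.06, 1.52, 1.44, 1.30 and 1.24 in controls and 0.82, 1.18, 1.12, 1.81 and 2.05 in hyperlipidemic livers. Hyperlipidemic replicates 4 and 5, both on slide 3, which held no control, were the highest. The other 3 were at or below most controls, so the difference was 0.08 (95% interval -0.44 to 0.60). With slide as a block it was -0.20. The strand that the probe reads was not used here.

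Of 6 members whose nearest or overlapping coding gene is one of lipid or bile acid metabolism, 4 were tested and 0 passed. The nearest coding gene of Celrr, 183 kb away, is Insig2, which holds the sterol sensor complex in the endoplasmic reticulum when sterols are high. It read 3.99, 3.97, 3.87, 4.22 and 4.23 in controls and 4.06, 3.94, 3.71, 2.80 and 3.11 in hyperlipidemic livers. Hyperlipidemic replicates 4 and 5, both on slide 3, which held no control, were the lowest arrays, by 0.60. Replicates 1 and 2 of that group lay within the control range. The difference was -0.53 (95% interval -1.07 to 0.0015, limma adjusted p = 0.827), -0.33 with slide and -0.23 with the spike-in set as a block. 1300002E11Rik, 6.51 kb from the peroxisomal fatty acid oxidation gene Ehhadh, differed by 0.03, and Gm10768, 0.471 kb from the bile pigment transporter gene Abcc2, by -0.06.

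Gm15441 overlaps Txnip, a thioredoxin-binding regulator of glucose uptake. It read 0.79, 0.84, 1.31, -0.61 and 0.20 in controls and 0.30, 0.79, 1.62, 0.16 and 0.91 in hyperlipidemic livers, with control replicate 4 the lowest array and hyperlipidemic replicate 3 the highest. Its interval, -0.50 to 1.01, included a 2-fold rise. Gm10804, also listed for lipid metabolism, differed by 0.19 (95% interval -0.40 to 0.79). Lncppara and 4930522O17Rik were detected on no array.

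Markers of other cell types and tissues were in part detected. Of 22 immune, stromal, neural and testis probes, 11 (50%) were detected on 0 arrays, where 61.2% of all members were, and 5 on all 10 arrays. Of 5 probes of immune RNAs, 4, for Ifngas1, Morrbid (2 probes) and Ptgs2os, were detected on no array. AW112010, which is induced in activated immune cells, was detected on all 10 and read 4.36, 4.69, 4.56, 3.50 and 4.80 in controls and 4.0, 4.30, 4.09, 3.78 and 4.10 in hyperlipidemic livers. Control replicate 4 was its lowest array, and the difference was -0.33 (95% interval -0.85 to 0.20). Of 9 stromal and endothelial probes, 4 (Carmn, Fendrr, Hotair and Hottip) were detected on none, both probes of Gata6os on all 10, Meg3 on 2, and Mhrt and Wt1os on 1. Of 7 neural transcripts, Sox2ot, Sox1ot and Cerox1 were detected on none, while Six3os1 and Mir9-3hg were detected on all 10, Peg13 on 8 and Rian on 4. Six3os1 differed by 0.49 (95% interval -0.23 to 1.20). Speer5-ps1, the 1 testis transcript of the lists with a probe, was detected on 1 array.

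For 2 genes 2 curated probes were tested. The probes of D130020L05Rik, which overlaps Ppp4r3a, differed by -0.06 and -0.02 between groups and followed each other over the 10 arrays (r = 0.94). The probes of Gata6os, antisense to Gata6, differed by -0.28 and 0.19 (r = 0.33). Their accessions name separate transcript forms, and the arrays are shared by both probes of a gene.

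Arrays of 1 slide stood apart for part of the members. Slide 1 carried only controls, replicates 1 to 4. Control replicate 5 shared slide 2 with 3 hyperlipidemic arrays, replicates 1 to 3, and the remaining hyperlipidemic arrays, replicates 4 and 5, were on slide 3. For 18 of the 194 tested members (9.28%) both arrays of slide 3 lay above all 8 others, where 7.35% of all probes tested did. For 15 (7.73%) both lay below, where 4.19% of all probes did. 1700028D13Rik read 0.41, 0.25, 0.27, -0.44 and -0.19 in controls and -0.46, -0.32, 0.02, 1.83 and 1.66 in hyperlipidemic livers. Its arrays on slide 3 stood 1.25 above the next. Selenok-ps1, a selenoprotein pseudogene, read 1.47, 2.24, 2.15, 1.67 and 2.76 and 1.98, 2.81, 2.63, 0.00 and 0.31, with the arrays on slide 3 lowest by 1.16. Mtag2, which overlaps Ppfia3, was 0.53 and 0.20 on slide 3 and -1.52 to -0.67 elsewhere. Gm6225, which overlaps the transcription factor gene Crem, was -1.12 and -1.36 there and -0.46 to 1.23 elsewhere. No control array shared that slide, so for these arrays slide and mouse cannot be told apart.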

How the data were processed

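RNA of 10 livers was measured on 1 one-colour Agilent array each, 5 per group. The authors extracted each spot's intensity with Feature Extraction 11.5.1.1, per the file headers, with background subtracted in the processed signal. A deposited table of the authors' log2 values served as an alternative. It differed from the values used here only by a constant per array, 0.16 to 0.25, so it changed the scaling alone. From the scanner files, control and outlier-flagged spots were left out, and the processed signal was taken to log2, centred on the 75th percentile of the non-control spots of its array, and averaged over the spots of a probe. Probes detected on 4 or 5 arrays of either group, by the software's flag for spots well above background, were compared with limma 3.58.1 in R 4.3.3 (lmFit and eBayes), as a two-sided test, and p-values were adjusted by Benjamini-Hochberg over the 30263 probes with a threshold of 0.05. The fit was run on simulated data with independent arrays. These had no slide or spike-in structure, so the run cannot show how the fit behaves under either. Of the 871 members, 867 had a value on every array. Names, classes and neighbours came from a RefSeq table of assembly GRCm38.p6, matched by accession; the headers name mm9, so no member coordinate is given from it beside the RefSeq promoter windows. The members and gene lists were chosen with earlier results of these data known.

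Members were named by rule: every member past the threshold, up to 8 in each direction with groups that did not overlap, those detected on 5 arrays of 1 group and at most 1 of the other, the 5 most and 5 least variable detected on all arrays, up to 4 tested members of each list, and the genes with 2 tested probes. Members at an unadjusted p under 0.05, Snhg9, Lncpint, Cyp2d13, Hnf4aos, Mtag2, Gm6225 and Gm30498 were added after values were seen. The number of arrays limits the precision. Alternatives covered scaling, background, filter, slide, spike-in signal, variance model, value table and each array left out.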

Additional observations from a re-analysis of the deposited data

Results flagged for a closer look

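Among the named members, 100 group values of 5 arrays each were examined for an array far from the others of its group, and 2 stood apart, where chance gives about 1 in 20, or 5. Snhg5, a host gene of small nucleolar RNAs, read 0.030 on hyperlipidemic replicate 4, against 1.15 to 1.32 on the other 4 of its group. 1700020N01Rik, a long non-coding RNA, read 0.68 on hyperlipidemic replicate 3, against -0.84 to -0.51 on the other 4. Without those arrays the differences between groups were -0.032 for Snhg5 and 0.54 for 1700020N01Rik, and 0 members passed the adjusted threshold. The cause was not tested.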

How the results depend on the processing

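Counts of curated transcripts past the adjusted threshold stayed at 0 in each direction under every alternative run except 1, the 4 arrays of the spike-in set that held both groups, where 1 was higher: Serpina4-ps1, at 2.94 (limma adjusted p = 5.20e-05), with 2 arrays per group, against 28 higher (0.0925%) of all probes. These arrays overlapped, at -4.70 and 0.52 in controls and 1.20 and 0.49 in hyperlipidemic livers, so control replicate 4 set the difference. The limma fit shares variance over all probes, so with 2 arrays per group that p does not measure this probe's own spread. Over all probes, 13 higher and 8 lower became 0 and 3 with slide as a block, 6 and 3 with the spike-in set as a block, 28 and 5 within the spike-in set of both groups, and 21 and 8 without control replicate 5; over all alternatives run they ranged from 0 to 28 and from 2 to 12. At an unadjusted p under 0.05 and at least 2-fold, 1 member was higher and 2 were lower, against 0.347% and 0.403% of all probes. Leaving out 1 array at a time gave a detection difference between -3.66 and -0.17 points, a difference from predicted transcripts of 8.51 to 8.85 and from NONCODE of 1.05 to 1.39 points, a median SD of 0.38 to 0.42, and 0 calls. The median SD did depend on the background method: it was 0.24 with normexp and an offset of 50, against 0.40 in the main run. Of 41 named members, 20 kept the direction of their difference in every alternative. With slide as a block 11 grew and 9 shrank by over 1.5 times and 11 reversed; with the spike-in set as a block 8 grew, 12 shrank and 12 reversed.

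The reversed values follow; the cause was not tested. With slide as a fixed block, and equally within the slide of both groups, they were 1300002E11Rik -0.063, Cyp2d13 -0.067, Gm10768 0.31, Gm10804 -0.47, Gm6225 0.44, Hnf4aos -0.20, Lncpint -0.39, Mir9-3hg 0.44, Mtag2 -0.31, Serpina4-ps1 -0.025 and Snhg9 -0.18. With the spike-in set as a fixed block, and equally within the set of both groups, they were AW112010 0.00061, Cyp2d37-ps 0.072, D130020L05Rik 0.23 and 0.15, Gm10768 0.33, Gm10804 -0.23, Hnf4aos -0.27, Lncpint -0.14, Mtag2 -0.12, Norad 0.056, Snhg5 0.033 and Snhg7 0.071. With array weights 1300002E11Rik was -0.0020, Cyp2d13 -0.080, Gm15441 -0.22, Lncpint -0.028 and Mir22hg 0.028. With the 75th percentile over detected probes 1300002E11Rik was -0.037 and Lncpint -0.0086, with quantile normalization 1300002E11Rik was -0.0068, and with normexp 1 probe of D130020L05Rik was 0.0060. Without control replicate 4 and hyperlipidemic replicate 4 together, chosen after seeing the data, Cyp2d13 was -0.066, Hnf4aos -0.024, Lncpint -0.18 and Snhg9 -0.13. Leaving out 1 array moved 1300002E11Rik between -0.14 and 0.24, Adh6-ps1 between -0.0041 and 0.44, Cyp2d13 between -0.084 and 0.22, Gm10768 between -0.22 and 0.074, Gm15441 between -0.028 and 0.45, Hnf4aos between -0.080 and 0.23, Lncpint between -0.085 and 0.24, Snhg9 between -0.022 and 0.27, and the D130020L05Rik probes between -0.24 and 0.080 and between -0.16 and 0.090.

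Normexp used the median signal. Spike-in sets are arrays with like signal of the added control RNA: control replicates 1 to 3, control replicates 4 and 5 with hyperlipidemic replicates 1 and 2, and the other 3. No paired analysis was possible because replicate numbers follow the order of accession and pair no mice.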

Other observations

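Gm30498, picked after values were seen, split by slide within the hyperlipidemic group. This long non-coding RNA read -0.81, -0.89, 0.06, -0.22 and -1.17 on control replicates 1 to 5. Hyperlipidemic replicates 1 to 3, all on slide 2, read -2.63, -2.50 and -1.81, while replicates 4 and 5 on slide 3 read -0.06 and -0.04. It was well above background on 5 control arrays and 2 hyperlipidemic arrays, with a difference of -0.80 (limma adjusted p = 0.827).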
